A study of Mus musculus with 4 samples.

Results

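The MHC class II presentation genes are 9 genes of the 33696 counted in these single-cell libraries: Ciita, Cd74, H2-Aa, H2-Ab1, H2-Eb1, H2-DMa, H2-DMb1, Ctss and Ifi30. They were chosen by name for their place in the class II pathway and not by their values, and all 9 were detected in every library. Each was followed over 22691 kept cells as a level, as a share of cells holding a transcript, and as co-detection within a cell. Most of the account concerns cells without a transcript of Ptprc (CD45) or Tyrobp (an adaptor of myeloid and natural killer cells), set beside the few immune cells in the same libraries, so that loose immune RNA could be judged.

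Class II molecules carry peptides from the endosome to the cell surface, where CD4+ T cells read them. Ciita is the transactivator that the other class II genes depend on, and interferon gamma is the usual inducer of Ciita outside professional antigen-presenting cells. Cd74 is the invariant chain, which escorts new class II molecules. H2-Aa and H2-Ab1 encode the alpha and beta chains of I-A, and H2-Eb1 the beta chain of I-E. H2-DMa and H2-DMb1 form the H2-DM dimer, which exchanges the invariant chain remnant for peptide. Ctss is cathepsin S, the protease that trims the invariant chain in macrophages, dendritic cells and B cells, and Ifi30 is GILT, a lysosomal thiol reductase that opens disulfide bonds of antigens. Fibroblasts with class II transcripts have been called antigen-presenting CAF (cancer-associated fibroblasts), and mesothelial cells are a known source of them.

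The cells came from B16-F1-OVA melanomas, a C57BL/6 mouse melanoma line that expresses ovalbumin, grown in the peritoneal cavity for 14 days in Cxcl13-cre-tdTomato X R26R-eGFPflox mice. Both tdTomato and the cre recombinase are made from the Cxcl13 promoter in these mice, and eGFP is switched on for good once cre has acted, so tdTomato reads present and eGFP past activity of that promoter. Podoplanin-high cells without CD45 and CD31 on their surface were sorted into tdTomato-neg eGFP+, tdTomato+ eGFP-neg, tdTomato+ eGFP+ and tdTomato-neg eGFP-neg (double-negative) populations, and each population gave 1 library. The number of mice in a pool was not given in the sources used here, and both Xist and Y-linked transcripts were present. Cells are called Xist-only or Y-only where they held the 1 kind of mark and not the other. A difference between populations rests on 1 library each and has no replicate check. A difference between cell groups was read within each of the 4 libraries, which are different sorted populations and not replicates of one. An exact two-sided permutation test that flips the signs of 4 within-library differences cannot go below p = 0.125, so the value in each library is given in place of a p, and all intervals (95%) cover counting error only.

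In the order of populations above, 6006, 4952, 920 and 10813 cells were kept, with medians of 8399, 9154, 8670.5 and 5607 UMIs (unique transcript tags) per cell. Between 2 and 21 barcodes were shared by any pair of libraries, at most 0.508% of the smaller one, and no doublets were removed. Clustering held out 12 variable genes from fixed lists of class II, class I, interferon gamma axis and costimulation genes. Class I and interferon-induced genes outside those lists, such as H2-T22, were not held out. The clustering gave 6 clusters with collagen transcripts, 1 melanoma-like and 1 immune-like cluster. The 6 collagen-expressing clusters held 21469 cells, and the 20854 of them with Ptprc 0 and Tyrobp 0 (97.1%) are called stromal cells below. A fibroblast-like cluster of 4583 stromal cells and a mesothelial-like cluster of 3569 are named for the marker lists highest in them. A cycling cluster held 4247, and 3 clusters are called by their leading genes: Calb2/Nos2 (4404 cells), Col6a6/Thsd4 (2222) and Inmt/Apod (1829). Per 1000000 UMIs, 11 mesothelial markers summed to 2454 in mesothelial-like, 1689 in Col6a6/Thsd4, 1289 in cycling and 250 in fibroblast-like clusters. The 9 fibroblast markers summed to 36035 in fibroblast-like, 28743 in Calb2/Nos2 and 14840 in mesothelial-like clusters. Neither list was thus particular to 1 cluster. The 7 markers of Pi16-positive fibroblasts summed to 8964 in the Inmt/Apod cluster and 647 elsewhere. Immune cells were the 305 cells with at least 1 Ptprc and 1 Tyrobp UMI (63, 137, 19 and 86 by library), which the sort was meant to leave out, and melanoma-like cells with neither transcript numbered 600.

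The promoters of class II genes are known for an X box and a Y box at a fixed distance, on which the RFX and NF-Y factors and then CIITA assemble. The letters are shown because 3 of the members share them. Promoter windows of 300 bases (250 before the start and 50 after it) from RefSeq, build GRCm38.p6, were held for H2-Aa, H2-Eb1, H2-DMa, H2-DMb1, Ctss and Ifi30. The processing notes name build GRCm39, so the coordinates below are those of RefSeq and not of the counting. Capitals mark CTNGNAAC (X-like letters, chosen after the sequences had been seen) and ATTGG (the Y box core) in the first 3 lines, and GAAA, 2 free bases and GAAA (letters like those of an interferon response element) in the last.
H2-Eb1, chr17:34305763-34305822, plus strand: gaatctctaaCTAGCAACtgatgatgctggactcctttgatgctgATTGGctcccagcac
H2-DMb1, chr17:34153084-34153144, plus strand: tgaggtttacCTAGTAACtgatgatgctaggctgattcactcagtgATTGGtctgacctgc
H2-Aa, chr17:34287857-34287917, minus strand: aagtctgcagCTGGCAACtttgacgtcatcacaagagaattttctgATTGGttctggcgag
Ctss, chr3:95526740-95526799, plus strand: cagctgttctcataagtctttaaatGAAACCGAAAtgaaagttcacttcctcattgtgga

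In H2-Eb1, H2-DMb1 and H2-Aa the X-like letters began 94, 97 and 84 bases before the start, and ATTGG began 35, 36 and 36 bases after them on the same strand. Both strands of all 32851 windows were searched: CTNGNAAC lay in 13.2% of them, ATTGG in 37.4%, the pair with ATTGG starting within 40 bases in 0.365%, and the letters of the last kind in 3.44%. The pair stood in 3 of the 6 members with a window, and the last kind in Ctss alone, 21 bases before its start. As the X-like letters were chosen after these sequences had been seen, the count of members with the pair cannot be compared with the share of all windows. The windows of H2-DMa and Ifi30 held no pair with these letters.

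Stromal cells without Ptprc and Tyrobp held class II transcripts at high levels in all 4 libraries. Levels are counts per 1000000 UMIs (CPM), summed over the cells of a group. The 3′ tags carry no length term, so the levels of different genes are read against each other only as tags. Cd74 came to 1851 CPM in tdTomato-neg eGFP+, 1722 CPM in tdTomato+ eGFP-neg, 1861 CPM in tdTomato+ eGFP+ and 1488 CPM in double-negative stromal cells. H2-Aa was at 360, 398, 354 and 265 CPM, H2-Ab1 at 449, 544, 470 and 299 CPM, and H2-Eb1 at 496, 534, 455 and 334 CPM in the same order. The double-negative library was the lowest of the 4 for each of these genes. H2-DMa was at 70.8, 83.3, 66.8 and 45.6 CPM and H2-DMb1 at 90.6, 90.1, 89.9 and 63.0 CPM, again lowest in the double-negative library. Ifi30 was at 117, 93.5, 94.8 and 93.9 CPM, with tdTomato-neg eGFP+ cells above the other three.

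The transactivator itself was a rare transcript. Ciita was at 5.31 CPM in tdTomato-neg eGFP+, 4.84 CPM in tdTomato+ eGFP-neg, 5.49 CPM in tdTomato+ eGFP+ and 3.63 CPM in double-negative stromal cells, from 286, 211, 46 and 263 UMIs. Ctss was lower still, at 1.78, 1.93, 1.79 and 1.89 CPM from 96, 84, 15 and 137 UMIs. Of the 552912 member UMIs in stromal cells, 53.9% were Cd74, 14.1% H2-Eb1, 13.3% H2-Ab1, 10.7% H2-Aa, 3.25% Ifi30, 2.55% H2-DMb1, 2.04% H2-DMa, 0.146% Ciita and 0.0600% Ctss. Cd74, H2-Eb1, H2-Ab1 and H2-Aa thus took most of the class II transcripts, and the 2 members named last took the least.

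**Figure D1:**
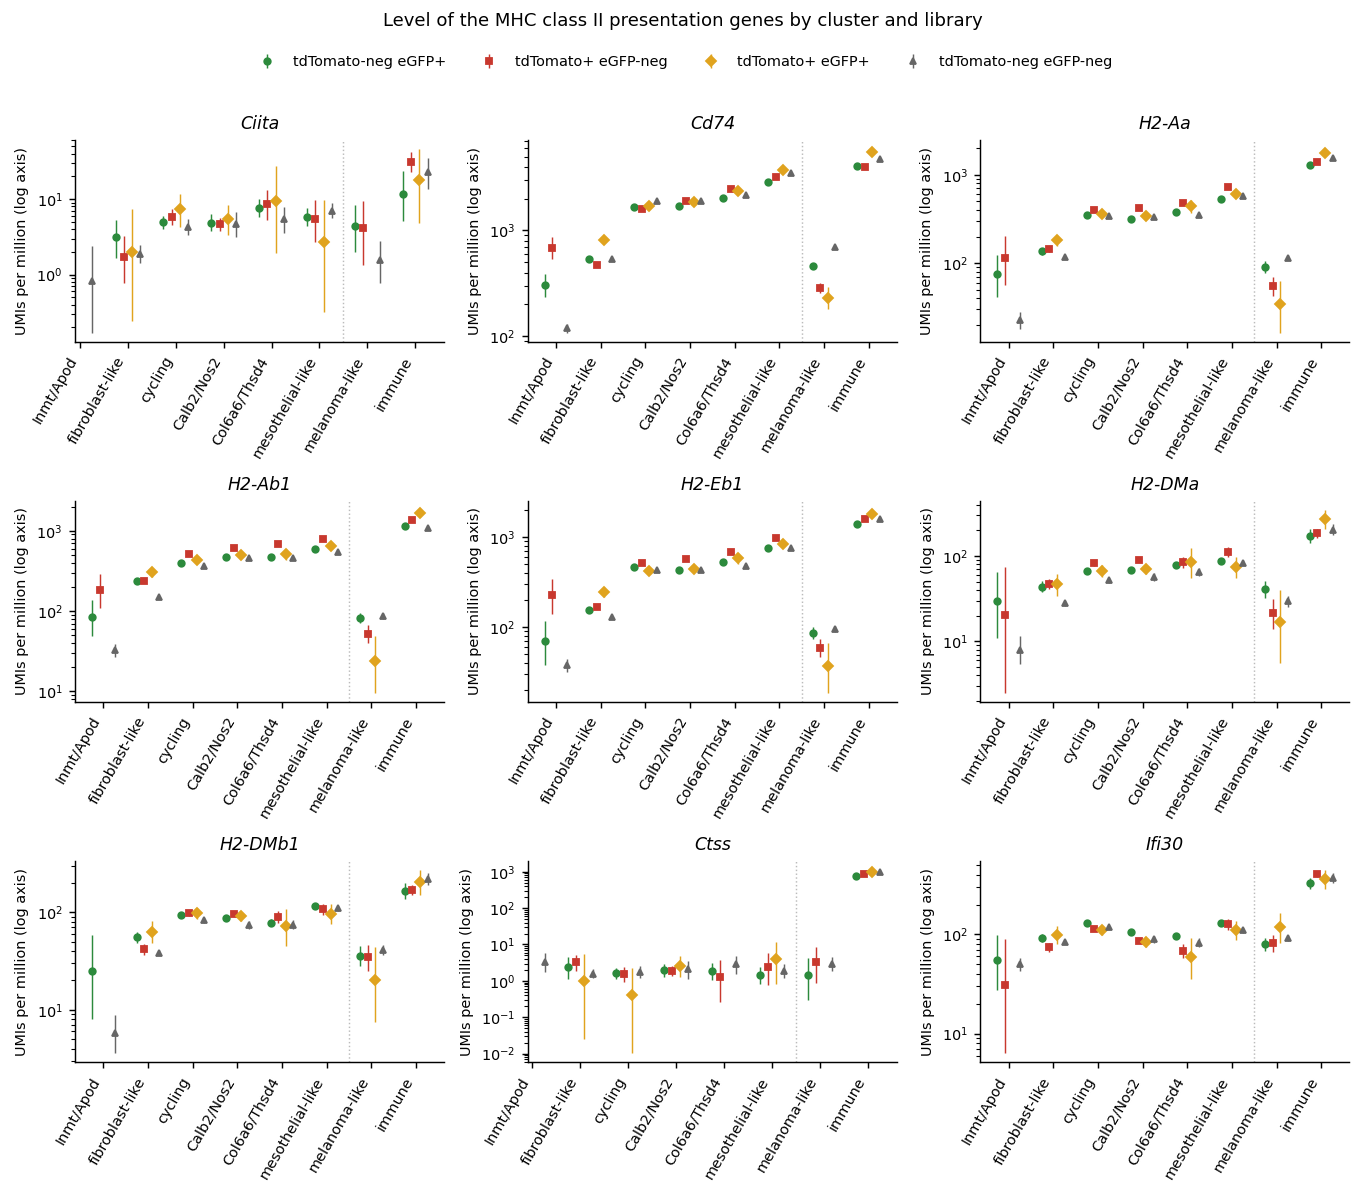
Level of each member in CPM (log axis) for immune cells, the 6 collagen-expressing clusters without Ptprc and Tyrobp UMIs, and melanoma-like cells, with 1 point per library and exact Poisson 95% intervals; groups with 0 UMIs or under 10 cells are not drawn. Cd74 spans 143 CPM in the Inmt/Apod to 3203 CPM in the mesothelial-like cluster over all 4 libraries, while Ctss sits between 1.61 and 3.06 CPM in every collagen-expressing cluster and at 892 CPM in immune cells.

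Immune cells in the same libraries held more of every member than stromal cells, and the gap was far wider for cathepsin S than for the rest of the pathway. In immune cells Cd74 was at 4034, 4006, 5512 and 4693 CPM in the library order above, H2-Aa at 1295, 1415, 1756 and 1565 CPM, and H2-Eb1 at 1375, 1571, 1818 and 1590 CPM. Immune Ctss was at 755, 873, 980 and 1014 CPM. No library's stromal interval reached its immune interval for these 4 genes. As log2 fold changes of immune over stromal cells, Cd74 differed by 1.12, 1.22, 1.57 and 1.66, H2-Aa by 1.85, 1.83, 2.31 and 2.56, and Ctss by 8.73, 8.82, 9.10 and 9.07.

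Of the 9 members, H2-DMb1 was the closest between immune and stromal cells in 3 libraries. H2-DMa was at 170, 185, 271 and 203 CPM and H2-DMb1 at 167, 170, 204 and 221 CPM in immune cells, which gave log2 folds of 1.27, 1.15, 2.02 and 2.16 for H2-DMa and of 0.88, 0.92, 1.18 and 1.81 for H2-DMb1. Immune Ciita rested on 8, 48, 4 and 19 UMIs (11.8, 31.3, 17.7 and 22.7 CPM), and in tdTomato-neg eGFP+ and tdTomato+ eGFP+ cells the interval of its log2 fold reached below 0 (1.16, -0.07 to 2.16, and 1.69, -0.24 to 3.15). Ifi30 was at 327, 408, 359 and 368 CPM, with log2 folds of 1.48, 2.12, 1.92 and 1.97. A log2 fold past 1 was found for 8 of the 9 members in all 4 libraries, the exception being H2-DMb1. Over all genes with at least 50 UMIs, 14.8%, 7.85%, 10.8% and 15.3% were higher in immune cells by that measure in each library alone. The share past it in all 4 libraries at once was not counted. As the immune cells are few, the shares by library include genes of low count that can pass that size by counting error. The count of members was 2 (Ctss and Ifi30) when immune cells were set against the mesothelial-like cluster alone, so for most members the distance from immune cells depended on which stromal cells were taken. With both groups limited to Xist-only cells, in the 3 libraries with enough of them, it was 2 (Ciita and Ctss).

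Loose immune RNA would carry macrophage transcripts in the ratio in which immune cells hold them, so each gene's stromal level was set against its immune level. Over all 4 libraries the stromal level was 39.0% of the immune level for Cd74 (38.3 to 39.6), 42.8% for H2-DMb1 (39.5 to 46.5), 32.9% for H2-DMa, 32.7% for H2-Ab1, 28.2% for H2-Eb1, 26.7% for Ifi30, 22.8% for H2-Aa and 18.7% for Ciita (14.8 to 23.9). For Ctss it was 0.209% (0.186 to 0.234), and 0.236%, 0.221%, 0.183% and 0.187% by library. Ctss thus lay with the immune markers and the other 8 members did not. Of 14 immune and macrophage markers, 13 lay between 0.107% (Adgre1, a macrophage surface marker) and 2.06% (Cd68, a lysosomal marker of macrophages), with a median of 0.267%. C1qa, C1qb and C1qc, complement genes of macrophages, were at 0.178%, 0.217% and 0.186%.

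The remaining marker, Csf1r, stood at 29.8% of its immune level (30.9 against 104 CPM), and at 18.6% to 41.7% by library. It encodes the receptor for the macrophage growth factor CSF1 and was singled out after its value had been seen. The 6 immune markers other than Ptprc and Tyrobp summed to 6.94 to 9.63 CPM by library in stromal cells and to 2608 to 3836 CPM in immune cells, and all 6 were detected in both. The 8 macrophage markers summed to 39.6 to 56.2 CPM in stromal and to 5791 to 8585 CPM in immune cells. The immune cells also held stromal RNA: their 9 fibroblast markers summed to 9213 to 19233 CPM, against 20146 to 30577 CPM in stromal cells, and the part of joined or mixed cells in their levels was not tested.

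**Figure D2:**
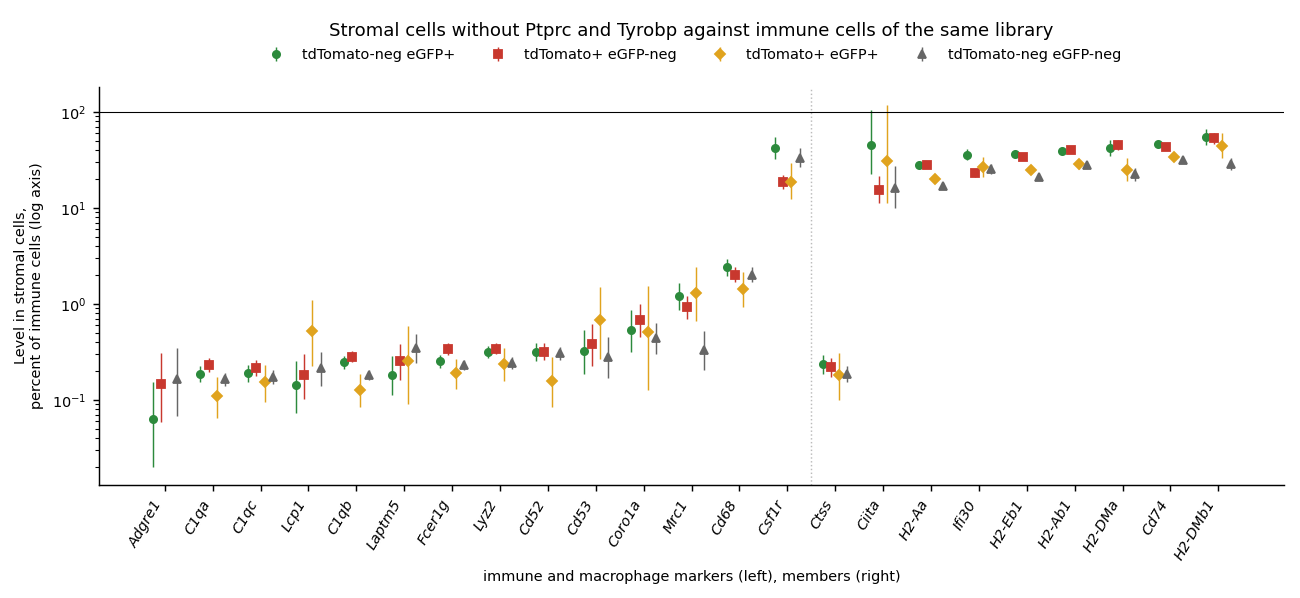
Stromal level of each of the 9 members and of 14 immune and macrophage markers as a percentage of the level in immune cells of the same library (log axis), with 1 point per library and exact binomial 95% intervals as bars. The members other than Ctss lie between 18.7% and 42.8% over all 4 libraries, Ctss lies at 0.209% among the markers, and Csf1r is the 1 marker at the members' height.

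A share of cells shows how widely the transcripts were spread. To compare shares at equal depth, each cell was thinned to 2000 UMIs and shallower cells were left out, which kept 18156 stromal, 275 immune and 573 melanoma-like cells. Median UMIs before thinning were 7205, 9057 and 17175.5. At this depth 73.3% of stromal cells held a Cd74 UMI, 47.0% H2-Ab1, 45.9% H2-Eb1, 39.7% H2-Aa, 17.4% Ifi30, 14.2% H2-DMb1, 11.7% H2-DMa, 1.03% Ciita and 0.341% Ctss. In immune cells the shares were 96.4% for Cd74, 86.9% for H2-Eb1, 81.5% for H2-Aa and H2-Ab1, 74.9% for Ctss and 52.0% for Ifi30. Ctss was thus held by most immune cells and, in stromal cells, by a share not above that of melanoma-like cells (0.349%, 0.0423 to 1.26).

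The 5 genes Cd74, H2-Aa, H2-Ab1, H2-Eb1 and H2-DMa were often found in the same stromal cell. At least 4 of them were co-detected in 4110 of 18156 thinned stromal cells, or 22.6% (22.0 to 23.3). The share was 25.8% in tdTomato-neg eGFP+, 30.0% in tdTomato+ eGFP-neg, 24.4% in tdTomato+ eGFP+ and 16.7% in double-negative cells. The double-negative library was lowest and its interval (15.9 to 17.5) met no other, but these intervals cover counting error in 1 library per population. By cluster, the shares in the same order were 38.4%, 51.2%, 39.8% and 39.1% in mesothelial-like and 7.95%, 8.64%, 9.88% and 4.90% in fibroblast-like cells. The double-negative library was thus not lowest in every cluster. The part of the cluster mix in the pooled shares was not tested. In immune cells the share was 70.9% (195 of 275), and in melanoma-like cells 3.14% (18 of 573). None of the 5 was seen in 18.4% of stromal, 1.82% of immune and 47.6% of melanoma-like cells.

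Over all stromal cells pooled, the members went together by pair. H2-Aa was held by 50.6% of cells with a Cd74 UMI and by 9.44% of cells without one, H2-Eb1 by 58.4% and 11.6%, and H2-Ab1 by 57.8% and 17.1%. Of cells with H2-Aa, 65.9% held its partner chain H2-Ab1, against 34.5% of cells without H2-Aa. The partners of H2-DM were found together less often in absolute terms, with H2-DMb1 in 24.5% of cells holding H2-DMa and in 12.9% of the others. Ciita, seen in 187 thinned stromal cells, was accompanied by Cd74 in 89.3% of them (84.0 to 93.3), against 73.2% of cells without Ciita. Ctss was held by 0.345% of cells with Cd74 and by 0.331% of cells without it, so no link between them was detectable at this depth. These shares pool clusters that differ in class II level. No Cd74 UMI was seen in 5.47% of mesothelial-like, 62.8% of fibroblast-like and 87.3% of Inmt/Apod cells at this depth. The pairing therefore carries differences between clusters as well as those between cells of a cluster.

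The 4 members outside the set of 5 divided in the same way when cells were grouped by how many of the 5 they held. Ciita was at 7.86 CPM in cells with at least 4, 4.19 CPM in cells with 1 to 3 and 1.20 CPM in cells with 0 of the 5, with no overlap of intervals. H2-DMb1 went from 137 to 75.1 and 21.7 CPM across the same groups. Ifi30 was nearly level at 108, 104 and 82.3 CPM, and Ctss was at 1.52, 1.96 and 1.59 CPM with overlapping intervals. These groups of cells also differ in their mix of clusters. Cells with 1 but not both of Ptprc and Tyrobp in the collagen-expressing clusters had a share of 26.7% with at least 4 of 5 (572 cells) and Ctss at 15.5 CPM, and they were not counted as stromal.

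**Figure D3:**
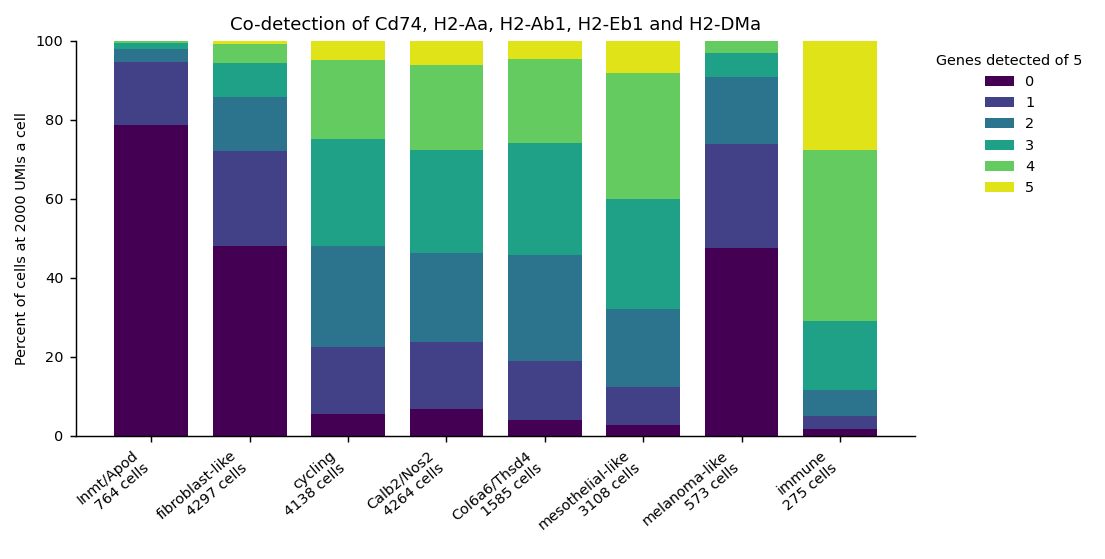
Percentage of cells, thinned to 2000 UMIs, that held 0 to 5 of Cd74, H2-Aa, H2-Ab1, H2-Eb1 and H2-DMa, for melanoma-like cells, the 6 collagen-expressing clusters and immune cells over all 4 libraries. At least 4 of the 5 were held by 0.654% of Inmt/Apod, 5.72% of fibroblast-like, 40.0% of mesothelial-like and 70.9% of immune cells.

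Apart from Ctss, class II transcripts differed more between stromal clusters than between sorted populations. Cd74 was at 143 CPM in the Inmt/Apod, 533 CPM in the fibroblast-like, 1731 CPM in the cycling, 1833 CPM in the Calb2/Nos2, 2149 CPM in the Col6a6/Thsd4 and 3203 CPM in the mesothelial-like cluster, a 22.5-fold range. Among library groups of at least 50 cells, the ranges over libraries of neighbours in this order overlapped only between the cycling and Calb2/Nos2 clusters. Below that size, the 36 Inmt/Apod cells sorted as tdTomato+ eGFP-neg had Cd74 at 688 CPM (67 UMIs, 533 to 874), above the 475 CPM of fibroblast-like cells there. The clusters also differed in sex marks, since of cells with 1 kind of mark 98.1% were Xist-only in the Inmt/Apod, 53.5% in the fibroblast-like, 49.4% in the cycling, 77.3% in the Calb2/Nos2, 14.1% in the Col6a6/Thsd4 and 39.8% in the mesothelial-like cluster. In Xist-only cells Cd74 was at 127, 394, 1639, 1794, 2026 and 3144 CPM in the cluster order above, the same order as in all cells. In Y-only cells, of which the Inmt/Apod cluster had too few, the other 5 clusters came to 535, 1537, 1457, 2036 and 2700 CPM, with cycling cells above Calb2/Nos2 cells. H2-Aa, H2-Ab1, H2-Eb1, H2-DMa and H2-DMb1 were likewise lowest in the Inmt/Apod and highest in the mesothelial-like cluster, with ratios of 20.7, 15.1, 17.7, 9.28 and 16.8. Ciita was highest in the Col6a6/Thsd4 cluster (7.11 CPM, 5.83 to 8.59), whose interval overlapped that of the mesothelial-like cluster (6.24 CPM). Ifi30 spanned 2.43-fold and was highest in cycling cells (122 CPM). For Ctss, at 1.61 to 3.06 CPM, the intervals of all 5 neighbouring pairs overlapped.

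The Inmt/Apod cluster was also the shallowest, with a median of 1736 UMIs, and 1065 of its 1829 cells were left out by thinning. Among the rest, 78.8% held none of the 5 genes, against 48.1% of fibroblast-like and 2.67% of mesothelial-like cells. Its Ctss interval (1.58 to 5.35 CPM) spanned the levels of the other clusters. At least 4 of 5 were held by 24.9% of cycling, 25.9% of Col6a6/Thsd4 and 27.5% of Calb2/Nos2 cells. Within a cluster the amount per cell varied widely: thinned mesothelial-like cells held a mean of 7.26 and a median of 6 Cd74 UMIs, and fibroblast-like cells a mean of 1.09 and a median of 0. In fibroblast-like cells the 10% of cells with the most of the 5 genes held 53.5% of their UMIs, and in mesothelial-like cells 26.7%.

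Set directly against the fibroblast-like cluster, the mesothelial-like cluster had more Cd74, H2-Eb1, H2-Aa and H2-Ab1 in every library. Cd74 was at 2869, 3197, 3706 and 3474 CPM in mesothelial-like and at 536, 475, 819 and 533 CPM in fibroblast-like cells, so the clusters did not overlap (log2 folds 2.42, 2.75, 2.18 and 2.71). H2-Eb1 was at 763, 973, 843 and 746 CPM against 154, 169, 244 and 130 CPM, with log2 folds of 2.31, 2.53, 1.79 and 2.53. H2-Aa differed by 1.96, 2.34, 1.75 and 2.31 and H2-Ab1 by 1.34, 1.74, 1.11 and 1.84 on the same scale. These 4 members were past log2 1 in all 4 libraries. In each library alone, 8.99%, 6.11%, 7.04% and 8.35% of all genes tested were higher in mesothelial-like cells by as much. The share of genes that were so in all 4 at once was not counted. H2-DMa (1.02, 1.23, 0.67 and 1.58) and H2-DMb1 (1.05, 1.36, 0.60 and 1.52) missed that size only in tdTomato+ eGFP+ cells, the library with 102 mesothelial-like cells, and without it 6 members passed. Ifi30 differed by 0.51, 0.77, 0.17 and 0.41.

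The summed 6 immune markers were at 7.38 to 11.3 CPM in mesothelial-like and at 5.04 to 10.3 CPM in fibroblast-like cells, so they did not part the clusters as the members did. With cells sorted by their mesothelial and fibroblast marker UMIs in place of clusters, the log2 fold of Cd74 was 0.37, 0.63, 0.67 and 1.22, and none of the members was past 1 in all libraries. That was also so when the Calb2/Nos2 cluster was joined to the fibroblast-like cluster (Cd74 1.02, 0.99, 1.18 and 2.17), and the size of the difference therefore depended on how the cell classes were drawn. Within either sex mark the Cd74 level of mesothelial-like cells stayed above that of fibroblast-like cells, as given above.

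Melanoma-like cells of the same libraries were the other cell type set beside the stromal cells. Their Cd74 was at 464, 286, 231 and 698 CPM, H2-Aa at 90.3, 55.0, 34.0 and 115 CPM and H2-Ab1 at 82.1, 52.6, 23.8 and 86.3 CPM in the library order above. Stromal levels were higher in every library for these 3 genes, with log2 folds of stromal over melanoma-like cells of 2.00, 2.59, 3.01 and 1.09 for Cd74, 2.00, 2.85, 3.38 and 1.20 for H2-Aa, 2.45, 3.37, 4.31 and 1.79 for H2-Ab1, and 2.53, 3.18, 3.61 and 1.79 for H2-Eb1. These 4 members were past log2 1 in all libraries. In each library alone, 24.1%, 22.3%, 22.4% and 30.8% of all genes tested were higher in stromal cells by as much, and the share in all at once was not counted. H2-DMa differed by 0.80, 1.96, 1.98 and 0.63, and H2-DMb1 by 1.34, 1.38, 2.14 and 0.61. Ifi30 differed by 0.56, 0.19, -0.33 and 0.03, with no shared direction over the libraries.

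Ctss in melanoma-like cells came to 1.45, 3.28, 0 and 2.97 CPM, and Ciita to 4.35, 4.11, 0 and 1.56 CPM, all from few UMIs. In the fibroblast-like cluster alone no member was past log2 1 over melanoma-like cells in all libraries. There Cd74 differed by 0.21, 0.73, 1.82 and -0.39, the last being lower in fibroblast-like cells of the double-negative library. Melanoma-like cells also held the 9 fibroblast markers at 1026 to 2560 CPM and the 6 immune markers at 13.6 to 25.3 CPM, and the part of these in their class II levels was not tested.

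**Figure D4:**
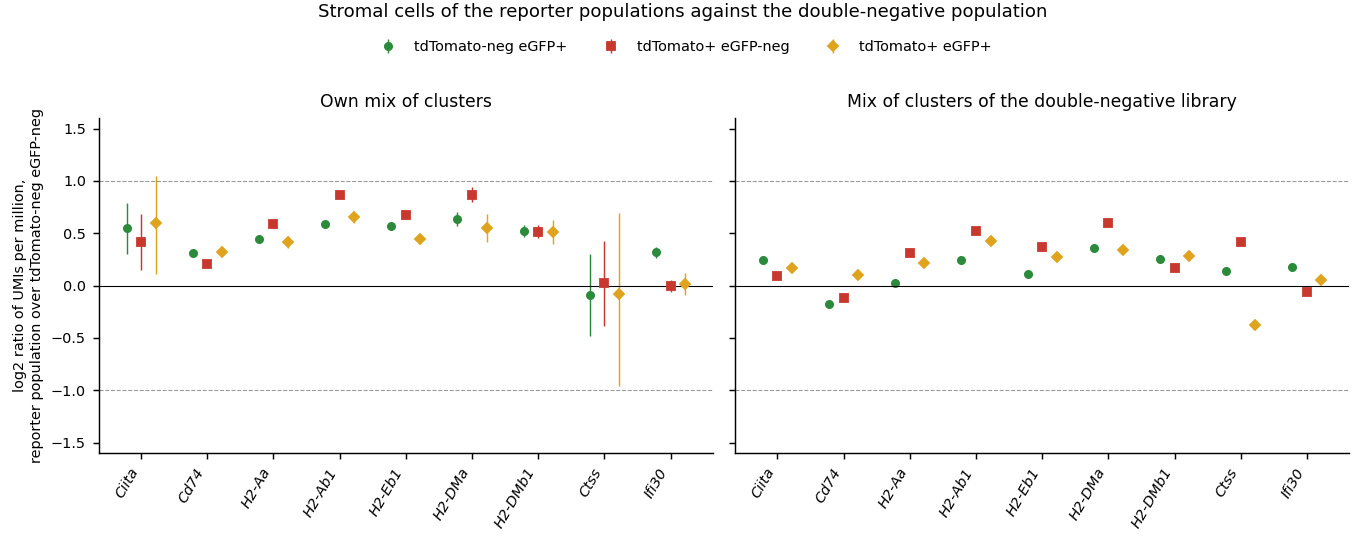
Log2 ratio of each member in stromal cells of the 3 reporter-positive libraries over the double-negative library, with each library's own clusters (left, bars are exact binomial 95% intervals) and with all libraries weighted to the double-negative library's cluster mix, without the Inmt/Apod cluster (right). All points lie between -0.09 and 0.87 on the left, and Cd74 lies at -0.17, -0.12 and 0.11 on the right.

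The stromal cells of the sorted populations, which report Cxcl13 promoter activity, differed by less than log2 1 in the level of each member. Over double-negative stromal cells, H2-DMa was higher by log2 0.63 in tdTomato-neg eGFP+, 0.87 in tdTomato+ eGFP-neg and 0.55 in tdTomato+ eGFP+ cells. H2-Ab1 differed by 0.59, 0.86 and 0.65, H2-Eb1 by 0.57, 0.68 and 0.45, H2-Aa by 0.44, 0.59 and 0.42, H2-DMb1 by 0.52, 0.51 and 0.51, Ciita by 0.55, 0.41 and 0.59, and Cd74 by 0.31, 0.21 and 0.32. All 7 were higher in each reporter-positive library, Ctss (-0.09, 0.03 and -0.08) was level within its counting error, and Ifi30 (0.32, -0.01 and 0.01) was higher in tdTomato-neg eGFP+ cells only. These 3 comparisons share the double-negative library, so they are not separate readings of it. None of the 9 members was past log2 1, while 1.51%, 3.19% and 2.41% of genes tested were higher by as much. At the smaller size of log2 0.25, 6 members passed in all 3 libraries, every member but Cd74, Ctss and Ifi30. In each library alone 28.2%, 31.5% and 20.0% of genes did, and the share in all 3 at once was not counted.

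The populations held different clusters. Fibroblast-like cells made up 7.24%, 12.2%, 11.0% and 35.6% of stromal cells in the order above, and Inmt/Apod cells, the lowest in class II, 1.27%, 0.812%, 0.239% and 17.2%. Weighted to the double-negative library's own cluster mix without the Inmt/Apod cluster, a calculation added after these values were seen, H2-DMa still differed by 0.36, 0.60 and 0.34 and H2-Ab1 by 0.24, 0.52 and 0.43. Cd74 then differed by -0.17, -0.12 and 0.11, H2-Aa by 0.02, 0.31 and 0.22, and Ciita by 0.24, 0.09 and 0.17. In the mesothelial-like cluster alone, Cd74 differed by -0.28, -0.12 and 0.09, so it was lower than in double-negative cells except in tdTomato+ eGFP+ cells. Over all stromal cells Cd74 had been higher. Ciita in this cluster differed by -0.28, -0.39 and -1.39. The last value came from 2.69 CPM in 102 cells, under the 4.03 CPM that 3 UMIs make there. No direction is read from Ciita in this cluster. In the fibroblast-like cluster, 9 of 9, 6 of 9 and 8 of 8 tested members were higher, in the same order. Its Cd74 was at 536, 475 and 819 CPM, against 533 CPM in double-negative cells. H2-Ab1 there was past log2 1 in tdTomato+ eGFP+ and Ctss in tdTomato+ eGFP-neg cells. Also past it were 3 of 5 tested members in the 71 Inmt/Apod cells sorted as tdTomato-neg eGFP+. In the Calb2/Nos2 cluster Cd74 differed by -0.17, -0.02 and -0.06. The reporter-positive libraries were also deeper per cell. Between the tdTomato+ populations, eGFP+ cells differed from eGFP-neg cells by -0.32 (H2-DMa) to 0.18 (Ciita), and none of the 9 was past log2 1, against 0.351% of genes higher and 1.91% lower.

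The other genes of the pathway were read from lists, each given as counts past log2 1 over all 4 libraries. Comparing immune with stromal cells, all 9 members were higher, with a median log2 fold of 1.83 against -0.02 over the 16065 genes tested, of which 12.5% were higher. Of the 7 promoter factors that serve class II genes (Rfx5, Rfxank, Rfxap, Nfya, Nfyb, Nfyc and Creb1), 0 were higher. Rfx5 was at 4.28 CPM in immune and 4.21 CPM in stromal cells, and Rfxap at 28.1 and 27.7 CPM, while Ciita had a stromal level of 18.7% of the immune one.

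Of the 8 tested genes among 11 others of the pathway, 6 were higher in immune cells. Marchf1, a ubiquitin ligase that removes class II from the surface, was at 33.9 CPM in immune and 0.202 CPM in stromal cells, and Lgmn, Ctsb and Ctsd, lysosomal proteases, at 614, 1219 and 459 CPM against 128, 384 and 126 CPM. Ctsl, the cathepsin that trims the invariant chain in thymic epithelium, was at 807 CPM in immune and 839 CPM in stromal cells. Stromal cells therefore held Ctsl near the level in immune cells, which also held stromal RNA, and Ctss at the percentage of the macrophage markers. H2-Oa and H2-Ob, whose dimer inhibits H2-DM in B cells, were at 0.0337 and 0.0393 CPM in stromal cells.

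Genes of the interferon gamma axis and of class I presentation were held by stromal and immune cells at similar levels. Of 14 interferon genes tested, 2 were higher in immune cells, Irf8 (65.1 against 25 CPM) and Cd274 (PD-L1, 126 against 35.1 CPM), where 12.5% of all genes were. Irf1, an interferon-induced transcription factor, was at 142 CPM in immune and 133 CPM in stromal cells, while Ifng itself was at 1.83 CPM in immune and 0.0393 CPM in stromal cells. Of 8 class I genes 0 passed, with B2m at 4138 and 3447 CPM and H2-K1 at 2493 and 2266 CPM. Costimulation was the contrast: 6 of 7 genes tested were higher in immune cells, Cd86 at 125 against 0.135 CPM and Cd80 at 12.2 against 1.63 CPM. Cd86, the ligand that antigen-presenting cells show to CD28 on T cells, was thus at 0.135 CPM in cells where Cd74 was at 1672 CPM.

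Against melanoma-like cells, 10 of the 14 interferon genes and 6 of the 8 class I genes were higher in stromal cells, as were 6 of the 9 members and 0 of the 7 promoter factors, where 30.6% of all genes were. The median over all 16152 genes tested was 0.22, and 1.06 for the members. In mesothelial-like over fibroblast-like cells 7 of the 9 members and 8.89% of all genes were higher, and the median was 1.65 for the members and 0.79 for the 8 class I genes, against -0.16 over 13536 genes. Of the class I genes 2 passed, the immunoproteasome subunits Psmb8 (994 against 458 CPM) and Psmb9 (461 against 197 CPM), and of 14 interferon genes 3 were higher (Gbp2, Gbp3 and Cd274) and 2 lower (Jak1 and Irf8). Gbp2, an interferon-induced GTPase, was at 813 and 174 CPM.

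Likeness to the members was read over 22 library-by-cluster groups with at least 50 stromal cells, among 7979 genes of at least 10 CPM. The 10 other genes whose CPM ranked most like the mean log2 level of the 9 members were Ddr1 (Spearman's rho 0.93), H2-K1 (0.93), Aifm2 (0.92), Atp9a (0.92), Gbp2 (0.91), Nnmt (0.90), Rab5c (0.90), Zfp791 (0.90), H2-T22 (0.89) and Fgf1 (0.88). Among the members themselves H2-Eb1 (0.96), H2-Ab1 (0.93), H2-Aa (0.93), H2-DMa (0.89), Cd74 (0.86) and H2-DMb1 (0.86) followed the mean, of which they are a part, and Ifi30 (0.49) less so. The lowest were Tnfaip6 (-0.85), Uxs1, Rdx, Pknox2 and Tspan6 (-0.82 each). The 22 groups share libraries, depth and cluster identity, so these values describe the order of the groups and carry no p.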

How the data were processed

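The authors deposited whole-number UMI counts per gene and cell barcode for 4 libraries of 10x 3′ chemistry, 1 per sorted population, without normalization. The file headers name Cell Ranger 8.0.0, and the submitters' processing notes name 10.0.0, STAR, Seurat 5.0 and build GRCm39. Library totals were 63310850, 52046896, 10071954 and 90259852 UMIs over 6461, 5299, 984 and 11745 barcodes. The study's filter (500 to 6000 genes, mitochondrial UMIs up to 10%) kept 22691 of 24489 barcodes.

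Cells were clustered in Seurat 5.3.0 (R 4.3.3) from 2000 variable genes, of which 12 members and related genes were held out, with 25 components, 20 neighbours and resolution 0.3. Clusters were named from fixed marker lists, and stromal cells had 0 Ptprc and 0 Tyrobp UMIs. UMIs were summed per library and group in Python 3.11.15 with pandas 2.3.3 and numpy 2.4.6 and given as CPM with exact Poisson intervals, shares with exact Clopper-Pearson intervals, and log2 ratios with exact binomial intervals (scipy 1.17.1). Populations, each a single library, were compared without a test. Cell groups were compared within each library, with an exact sign-flip permutation test over the 4 libraries. A gene was tested where both groups together held at least 50 UMIs, and counted past log2 1. The scripts were tested on simulated data, where genes of low count passed log2 1 by counting error in groups of few cells. A count of 0 was read as at most 3 UMIs. Cells were thinned to 2000 UMIs for shares. No doublets were removed.

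All 9 members were named, with 5 further lists of 11, 7, 15, 8 and 9 genes, at most 6 examples of each, and the 10 most and 5 least like genes over cluster groups. The members and lists were chosen with earlier results of these data known. Alternatives were other filters, depths, scalings, folds, sex marks, clusterings and cell groups.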

Additional observations from a re-analysis of the deposited data

How the results depend on the processing

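The number of members past log2 1 in every library (8 for immune over stromal, 4 for stromal over melanoma-like, 4 for mesothelial-like over fibroblast-like cells, 0 for the reporter populations) moved by over 1.5 times under these alternatives. For immune over stromal cells it was 2 in Xist-only cells (3 libraries) and 2 against the mesothelial-like cluster alone. For stromal over melanoma-like cells it was 2 with median-of-ratios scaling, 0 in Xist-only cells (1 library) and 0 for the fibroblast-like cluster alone. For mesothelial-like over fibroblast-like cells it was 0 with classes by marker UMIs and 0 with the Calb2/Nos2 cluster joined, and 4 to 6 with each library left out. For the reporter populations it was 6 at log2 0.25.

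Co-detection of at least 4 of 5 genes (22.6%) was 24.2% without cells over 2 times the median UMIs, 20.6% in Xist-only and 20.6% in Y-only cells, 44.2% for at least 3 of 5, 8.34%, 51.2% and 54.0% with 1000, 5000 and all UMIs, and 20.4% to 27.5% with each library left out. The share thus depends on depth, and the highest value is that without the double-negative library.

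Of 1817 values of single members under alternatives, 1230 moved by less than their counting interval, 581 by more, and 6 that had been past log2 1 changed sign. The 1230 include values that could not move, as some alternatives changed only the fold size, the minimum of UMIs or the libraries counted. How many these were was not counted, so 1230 of 1817 is no measure of stability. Another 59 changes of sign, counted among the rest, were of values not past log2 1 (37 in the reporter populations, 21 in stromal over melanoma-like and 1 in mesothelial-like over fibroblast-like cells). The 6 were Ciita in immune over stromal tdTomato+ eGFP-neg cells thinned (-0.56), H2-DMa (-0.49) and H2-DMb1 (-0.13) in stromal over melanoma-like tdTomato+ eGFP+ cells thinned, and, in double-negative stromal over melanoma-like cells, Ciita in Xist-only (-0.42) and Y-only (-0.15) cells and Cd74 in the fibroblast-like cluster alone (-0.39). The thinned values rest on 17 or fewer cells or on few UMIs, and the other causes were not tested.

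No paired analysis was possible because each population had 1 library, as far as the populations are compared. Paired within the 4 libraries, 9 of 9 members were higher in immune than stromal cells in every library, 6 of 7 with UMIs in all libraries were higher in stromal than melanoma-like cells, and 8 of 9 in mesothelial-like than fibroblast-like cells, each at an exact p of 0.125, the smallest that 4 libraries allow (0.136 adjusted over 25 values). That test was added after the values had been seen. The 8 members higher in mesothelial-like cells include Ciita, which was under the minimum of 50 UMIs in the tdTomato+ eGFP-neg and tdTomato+ eGFP+ libraries. In tdTomato+ eGFP+ cells its levels (2.69 and 2.02 CPM) lay under those that 3 UMIs make there (4.03 and 3.03 CPM). No shared direction is therefore read from Ciita in that comparison. The share of all genes higher in every library was not counted, so these counts of members stand without a background. The 4 libraries are different sorted populations and not replicates. The cell groups of 1 library share its cells' loose RNA and depth, and the populations cannot be told apart from their libraries.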
